A study of Mus musculus with 6 samples.

Results

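The genes described here encode the enzymes that make phosphatidylcholine (PC) and phosphatidylethanolamine (PE) in the liver: Pemt, Chka, Chkb, Pcyt1a, Chpt1, Cept1, Etnk1, Etnk2, Pcyt2 and Pisd. They were chosen by name as the classical enzymes of these routes. All 10 were found among the 41388 genes counted, and all 10 passed the filter on low counts. Liver RNA was sequenced from C57BL/6 mice of Mttp f/f Villin Cre ERT2 background, in which Cre recombinase under the intestinal villin promoter is active once tamoxifen is given, so that Mttp, which loads triglyceride onto nascent chylomicrons, is lost from the gut epithelium. *Mttp-IKO* mice received tamoxifen at 50 μg/g body weight a day for 5 days and control mice, labelled wild type and described as littermates, received vehicle. The effects of tamoxifen and of the deletion therefore cannot be told apart. Beginning 3 weeks after the injections, all mice, 12 to 16 weeks old, ate a methionine- and choline-deficient (MCD) diet for 3 weeks, and livers were taken after a fast of 4 h by the labels and 4 to 6 h by the methods. Each genotype was represented by 3 pools of RNA, and a pool combined 3 to 4 mice. Thus n = 3 per genotype throughout, and pools vary less than single mice would. No pool from mice on a choline-replete diet was analysed here, so the comparison is between genotypes under choline deficiency and not with and without choline.

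PC is the main phospholipid of hepatocyte membranes, of bile and of the surface of very low density lipoproteins. In the CDP-choline route, choline taken up by the cell is phosphorylated by choline kinase, activated with CTP by the enzyme that usually sets the rate, and joined to diacylglycerol by a phosphotransferase. The CDP-ethanolamine route makes PE by the parallel steps, mitochondria make PE by decarboxylating phosphatidylserine, and the liver alone can convert much PE to PC through Pemt, which uses the methyl groups of S-adenosylmethionine. Choline deficiency thus withholds the substrate of the first route, and methionine deficiency that of Pemt.

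Of the 10 genes, Chka stood out. Its level was higher in every *Mttp-IKO* pool than in any control pool, with a 3.09-fold higher mean, while Pemt and the later enzymes of the CDP-choline route overlapped between genotypes. By edgeR's quasi-likelihood test, with p-values of all 17287 genes tested adjusted by Benjamini and Hochberg, 0 of the 10 genes passed the threshold of 0.05, against 4.01% of all genes, 0.92% with higher and 3.09% with lower levels in *Mttp-IKO* pools. At an unadjusted p under 0.05 there were 2, Chka and Etnk1, both with the higher mean in *Mttp-IKO* pools, against 23% of all genes, 9.53% higher and 13.5% lower. DESeq2 called 1 of the 10, Chka, against 11.5% of all genes, and limma-voom called 0 against 2.48%. Chka was the only gene of the 10 whose pools did not overlap, against 31% of all genes, 14.5% higher and 16.5% lower. The mean was higher in *Mttp-IKO* pools for 6 genes and lower for 4, where 50.5% of all genes had the higher mean, and the median log2 fold change was 0.22 over the 10 genes and 0.0057 over all genes tested. The 10 genes were thus neither called nor set apart between genotypes more often than genes in general. In the plot of levels by pool, *Mttp-IKO* pool 3 held the highest value for 6 of the 10 genes and the lowest for 1.

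**Figure D1:**
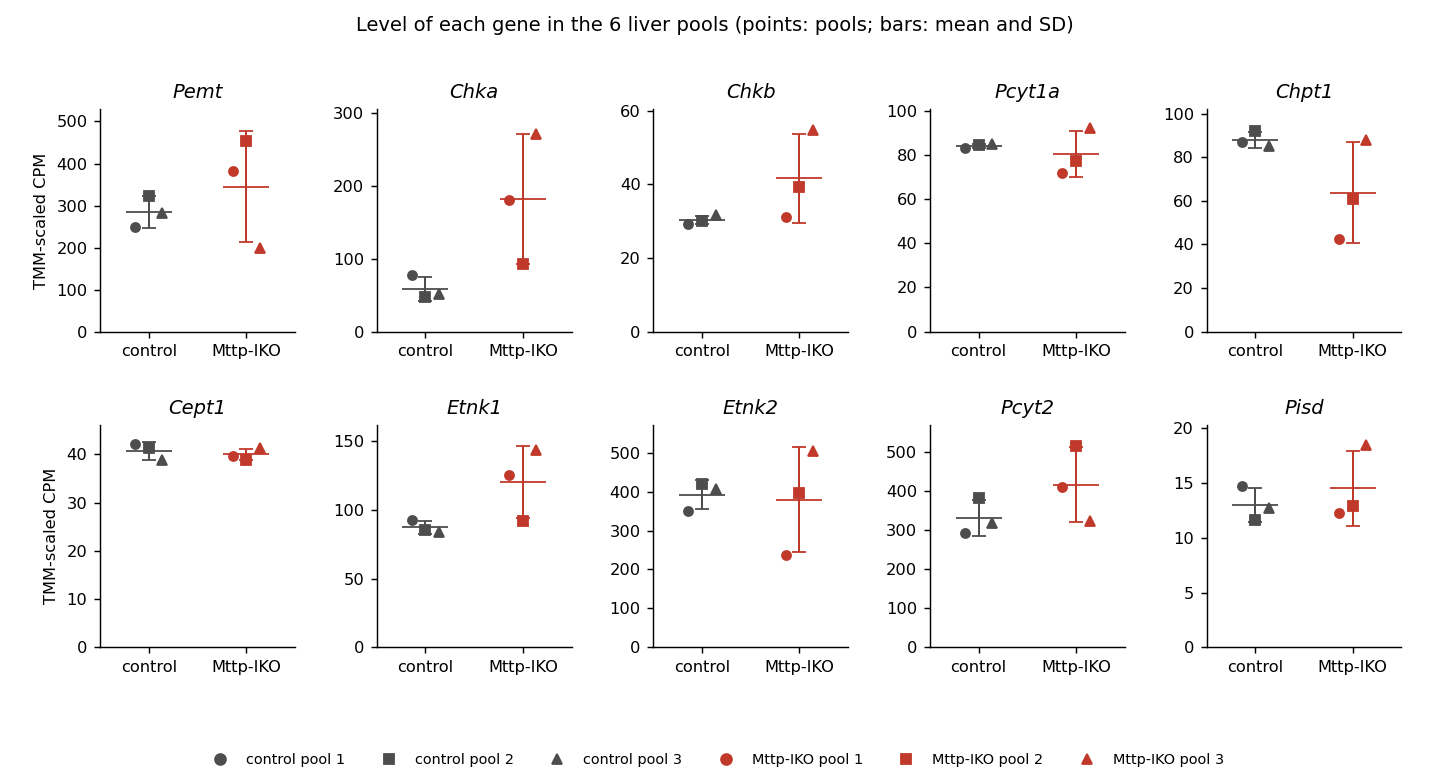
Level of each of the 10 genes in TMM-scaled CPM (reads relative to the library's total, linear axis from 0) in the 3 control pools (grey) and the 3 Mttp-IKO pools (red); each point is a pool, the horizontal bar the mean and the whiskers the SD. Only Chka has all 3 Mttp-IKO pools above all control pools, and for Pemt Mttp-IKO pools 1 and 2 lie above the controls and pool 3 below them.

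The pools held 25271585 to 36238734 reads on genes, so that each of the 10 genes was counted on many reads, and a count of 0 would have allowed up to 0.0828 to 0.119 CPM, counting error only. Mttp itself stood at 90.4, 186 and 175 CPM in control pools 1 to 3 and at 145, 129 and 161 CPM in *Mttp-IKO* pools 1 to 3, which cannot check the labels, because the deletion is in the intestine. *Mttp-IKO* pool 3 stood apart from the other libraries. Small noncoding RNAs took 0.290% of its reads, against 1.92% to 3.51% in the other pools. Genes with a principal transcript of 300 to 1000 nt had a median log2 level 1.20 below the control mean in that pool (median difference -1.20) and those over 8000 nt one of 0.45 above it, whereas in the other 5 pools these medians lay between -0.053 and 0.084 over the length classes plotted. That pool held the highest or lowest of the 6 values for 58.2% of all genes and for 7 of the 10 described here. The fold change without that pool is given beside each of the 10 genes. The SD relative to the mean was larger in *Mttp-IKO* than in control pools for 9 of the 10 genes (90%) and for 70.6% of all genes.

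**Figure D2:**
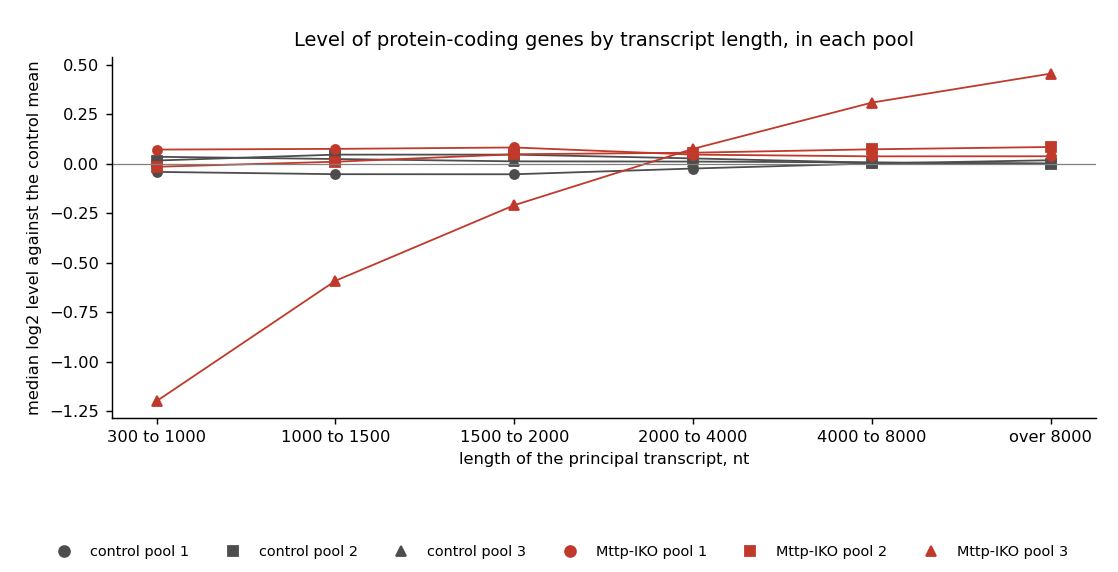
Median log2 level of protein-coding genes against the control mean (vertical axis) by length of the principal transcript in nt (horizontal axis), 1 line for each pool, for classes of 453 to 3631 genes. The other 5 pools lie close to 0 at every length, and Mttp-IKO pool 3 runs from -1.20 in the shortest class shown to 0.45 in the longest.

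Pemt, the N-methyltransferase that turns PE into PC, lies at chr11:59970614-60046489 of GRCm38. It stood at 249, 324 and 282 CPM in control pools 1 to 3 and at 383, 453 and 199.5 CPM in *Mttp-IKO* pools 1 to 3. *Mttp-IKO* pools 1 and 2 lay above every control pool and pool 3 below every control pool, so the genotypes overlapped. The means were 285 ± 37.4 CPM (SD, n = 3) and 345 ± 131 CPM (SD, n = 3), a log2 fold change of 0.28 with a 95% interval of -0.41 to 0.96 (edgeR, adjusted p = 0.615). The interval spans a 1.94-fold higher and a 0.755-fold level, so the data leave a moderate difference in either direction undecided. Without *Mttp-IKO* pool 3 the log2 fold change was 0.55 (edgeR, adjusted p = 0.0875), and without *Mttp-IKO* pool 2 it was 0.031. The principal Pemt transcript is short, 1003 nt, and genes of 1000 to 1500 nt had a median log2 difference of -0.59 in *Mttp-IKO* pool 3. With each library's trend on transcript length removed, an alternative chosen after the data were seen, the log2 fold change of Pemt was 0.44 (edgeR, adjusted p = 0.235), beside a median of 0.12 over all genes in that fit.

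Chka, choline kinase alpha, takes the first step of the CDP-choline route and lies at chr19:3851773-3894369. It stood at 77.5, 47.5 and 51.2 CPM in control pools 1 to 3 and at 181, 92.7 and 271 CPM in *Mttp-IKO* pools 1 to 3. Every *Mttp-IKO* pool was above every control pool, and the nearest pair was *Mttp-IKO* pool 2 and control pool 1. The means were 58.8 ± 16.3 CPM and 182 ± 89.1 CPM (SD, n = 3 each). The log2 fold change was 1.63 with a standard error of 0.38, the 95% interval ran from 1.68- to 5.67-fold, and the unadjusted p was 0.00265 and the adjusted p 0.0569 in edgeR. The adjusted value thus missed the threshold, and it fell to either side of it with the processing. It was 5.65e-04 by DESeq2, 0.0227 in edgeR without the filter on low counts, 0.0371 with the trend on gene length removed, 0.0426 with that on transcript length removed and 0.0491 with the replicate number as a block. It was 0.0542 to 0.0747 in edgeR with other scalings, robust dispersion, at least 1 CPM required in 3 pools or protein-coding genes only, 0.0721 by limma-voom and 0.0735 to 0.220 in edgeR when any single pool was left out. The log2 fold change stayed between 1.22 and 1.94 over these omissions, the lowest without *Mttp-IKO* pool 3. With 3 pools in each genotype, the smallest two-sided p of an exact permutation test is 0.1. Of 11 core clock and clock output genes, 3 were called higher and 1 lower in *Mttp-IKO* pools, against 0.92% and 3.09% of all genes. Of 12 genes of the fasting and glucocorticoid response, 11 had the higher mean and 0 were called. The part of either list in the level of Chka was not tested.

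Chkb, choline kinase beta, the second kinase for choline and ethanolamine, lies at chr15:89416405-89429908. It stood at 29.3, 30.1 and 31.5 CPM in control pools and at 31.0, 39.2 and 54.6 CPM in *Mttp-IKO* pools. *Mttp-IKO* pool 1 fell within the narrow range of the controls, and the other two lay above it. The means were 30.3 ± 1.13 and 41.6 ± 12.0 CPM, a log2 fold change of 0.46 (edgeR, adjusted p = 0.245), and 0.21 without *Mttp-IKO* pool 3. In the annotation used for counting, 52.8% of the exon length of Chkb was shared with other genes, 47.3% with Cpt1b on the same strand, and reads falling there were not counted for either gene, so the level of Chkb is uncertain. The log2 ratio of Chka to Chkb, per kilobase of counted exons, was 0.35, -0.39 and -0.35 in control pools and 1.50, 0.19 and 1.26 in *Mttp-IKO* pools, and the genotypes overlapped, with *Mttp-IKO* pool 2 below control pool 1.

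Pcyt1a, the enzyme that makes CDP-choline from phosphocholine and CTP and usually sets the rate, lies at chr16:32430921-32475070. It stood at 82.9, 84.5 and 84.9 CPM in control pools and at 71.7, 77.4 and 92.1 CPM in *Mttp-IKO* pools. The control pools were nearly alike, and the *Mttp-IKO* pools lay on both sides of them. The log2 fold change was -0.065 with a 95% interval of -0.42 to 0.28 (edgeR, adjusted p = 0.834), which leaves out a change of the size seen for Chka, and -0.17 without *Mttp-IKO* pool 3. This enzyme is largely controlled by its binding to membranes, which mRNA levels do not measure. Its brain-enriched isoform Pcyt1b was close to the counting floor, at 0.198, 0.166 and 0.125 CPM in control pools and at 0.355, 0.583 and 0.419 CPM in *Mttp-IKO* pools. Its pools did not overlap, with a log2 fold change of 1.44 (edgeR, adjusted p = 0.125).

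Chpt1, cholinephosphotransferase, completes the route in the Golgi and lies at chr10:88452745-88504073. It stood at 86.8, 92.0 and 85.3 CPM in control pools and at 42.4, 61.1 and 88.1 CPM in *Mttp-IKO* pools. *Mttp-IKO* pools 1 and 2 lay below every control pool, and pool 3 lay among the controls. The means were 88.0 ± 3.52 and 63.9 ± 23.0 CPM, a log2 fold change of -0.46 with a 95% interval of -1.04 to 0.12 (edgeR, adjusted p = 0.312). Without *Mttp-IKO* pool 3 it was -0.76 (edgeR, adjusted p = 0.0533). Cept1, the phosphotransferase of the endoplasmic reticulum that accepts both CDP-choline and CDP-ethanolamine, lies at chr3:106502260-106547802. It stood at 42.1, 41.2 and 38.7 CPM in control pools and at 39.7, 38.9 and 41.2 CPM in *Mttp-IKO* pools. The ranges nearly coincided. Its log2 fold change was -0.026 with a 95% interval of -0.33 to 0.27 (edgeR, adjusted p = 0.927), -0.047 without *Mttp-IKO* pool 3, and Cept1 had the narrowest interval of the 10 genes. Of the counted exons of Cept1, 28.3% overlap genes on the other strand, Dennd2d and Dram2, and whether strand was used in counting is not stated in the sources used here.

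The promoters of Chka, Chpt1 and Pemt are shown because these are the choline kinase that stood apart, the last enzyme of the same route with the lowest fold change of the 10, and the methylation enzyme set against them. Sequences are RefSeq windows of GRCm38.p6, from 250 bases before to 50 bases after the annotated start, and 9 of the 10 genes had at least 1 window, 15 in all. Capitals mark matches, on either strand, to the GC box GGGCGG and the CCAAT box CCAAT. The Chka window is chr19:3851523-3851822 on the plus strand, the Chpt1 window chr10:88503921-88504220 on the minus strand, and the Pemt windows chr11:60040139-60040438 and chr11:60036956-60037255, both on the minus strand.
Chka: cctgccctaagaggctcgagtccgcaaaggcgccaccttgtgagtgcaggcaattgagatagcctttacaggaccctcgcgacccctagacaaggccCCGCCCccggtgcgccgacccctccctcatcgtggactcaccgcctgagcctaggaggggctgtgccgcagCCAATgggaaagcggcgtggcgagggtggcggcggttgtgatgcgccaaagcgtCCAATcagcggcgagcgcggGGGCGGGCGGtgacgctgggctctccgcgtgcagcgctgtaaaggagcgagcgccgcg
Chpt1: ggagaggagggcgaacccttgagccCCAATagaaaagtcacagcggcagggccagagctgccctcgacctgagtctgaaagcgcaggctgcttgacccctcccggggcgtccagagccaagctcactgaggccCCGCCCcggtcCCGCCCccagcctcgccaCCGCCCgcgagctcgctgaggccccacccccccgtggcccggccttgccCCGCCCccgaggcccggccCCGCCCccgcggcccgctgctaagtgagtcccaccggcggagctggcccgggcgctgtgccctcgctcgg
Pemt start 1: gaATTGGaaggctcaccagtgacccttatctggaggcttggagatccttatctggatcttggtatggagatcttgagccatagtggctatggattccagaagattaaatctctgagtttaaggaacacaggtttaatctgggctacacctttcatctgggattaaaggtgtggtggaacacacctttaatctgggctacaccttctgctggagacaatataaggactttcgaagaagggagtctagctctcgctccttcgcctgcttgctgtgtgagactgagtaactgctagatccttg
Pemt start 2: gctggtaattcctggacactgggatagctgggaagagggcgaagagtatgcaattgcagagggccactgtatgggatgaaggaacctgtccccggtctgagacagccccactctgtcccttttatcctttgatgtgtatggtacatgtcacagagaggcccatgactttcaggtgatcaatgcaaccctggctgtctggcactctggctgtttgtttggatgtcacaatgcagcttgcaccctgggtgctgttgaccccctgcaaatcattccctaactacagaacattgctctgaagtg
The Chka and Chpt1 windows were rich in G and C, at 68.7% and 75.3%, and those of Pemt were not, at 46.3% and 51.7%, against a median of 52.7% and quartiles of 45.7% and 61.7% over all windows. Chka held 3 GC boxes, of which 2 overlap, and 2 CCAAT boxes. Chpt1 held 5 GC boxes and 1 CCAAT box. Pemt held 1 CCAAT box at start 1 and no match at start 2. At least 1 GC box was present in 35.7% of the 32851 windows of all genes and at least 1 CCAAT box in 37.4%. On both strands, the AP-1 site TGACTCA, present in 5.20% of all windows, and the E-box CACGTG, present in 7.15%, had no match in any of the 15 windows. A match describes letters in the window and is not evidence of binding.

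In the CDP-ethanolamine route, Etnk1 and Etnk2 phosphorylate ethanolamine and Pcyt2 activates it with CTP. Etnk1, at chr6:143167230-143208542, stood at 92.7, 85.5 and 83.6 CPM in control pools and at 125, 91.8 and 144 CPM in *Mttp-IKO* pools. Only *Mttp-IKO* pool 2 fell within the control range, just under control pool 1. The means were 87.3 ± 4.78 and 120.1 ± 26.2 CPM, a log2 fold change of 0.46 with a 95% interval of 0.020 to 0.90, an unadjusted p of 0.0426 and an adjusted p of 0.201 (edgeR), and 0.32 without *Mttp-IKO* pool 3. Etnk2, the liver-enriched kinase at chr1:133363572-133380336, stood at 349.5, 420.0 and 407 CPM in control pools and at 236, 397 and 505 CPM in *Mttp-IKO* pools. *Mttp-IKO* pool 1 was the lowest of all and pool 3 the highest. Its log2 fold change of -0.048 (edgeR, adjusted p = 0.938) turned to 0.20 without *Mttp-IKO* pool 1 and was -0.31 without pool 3.

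Pcyt2, at chr11:120610087-120617936, stood at 294, 382 and 319 CPM in control pools and at 410.2, 515 and 323 CPM in *Mttp-IKO* pools. *Mttp-IKO* pools 1 and 2 lay above every control pool, as for Pemt, and pool 3 lay between control pools 2 and 3. The means were 332 ± 45.6 and 416 ± 96.4 CPM, a log2 fold change of 0.33 with a 95% interval of -0.18 to 0.83 (edgeR, adjusted p = 0.411), and 0.48 without pool 3. Pisd, the mitochondrial phosphatidylserine decarboxylase at chr5:32736301-32785646, stood at 14.7, 11.6 and 12.7 CPM in control pools and at 12.2, 12.9 and 18.4 CPM in *Mttp-IKO* pools. The genotypes overlapped, and only pool 3 of the *Mttp-IKO* pools lay above the controls. Its log2 fold change was 0.15 (edgeR, adjusted p = 0.692) and turned to -0.051 without that pool. Reads that could also come from its pseudogenes were not counted, and 30.3% of its counted exons are shared with Gm20671, listed at 0 reads in all 6 pools, so the level of Pisd is a lower estimate.

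**Figure D3:**
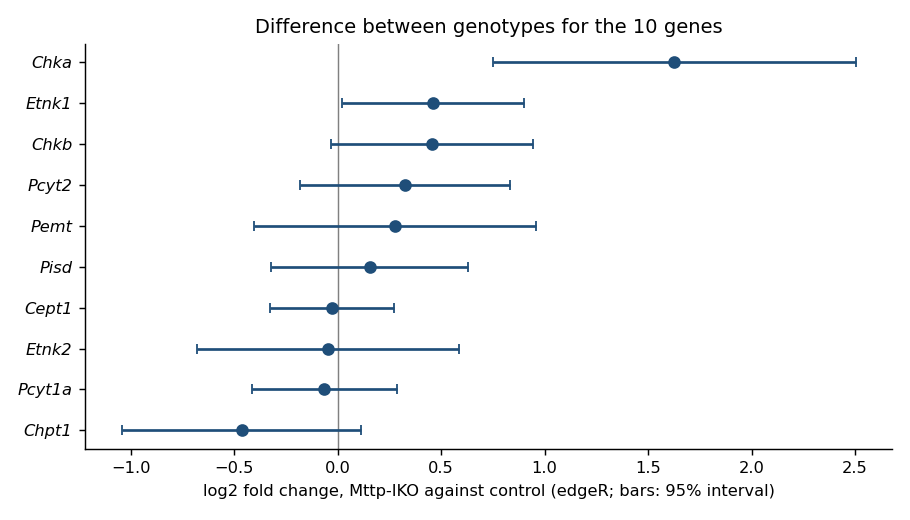
Log2 fold change of each of the 10 genes, Mttp-IKO against control (points), with the 95% interval from the edgeR fit (bars); the grey line is no difference. Chka lies at 1.63 and Etnk1 at 0.46, both with intervals above 0, and the other 8 intervals include 0.

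The contrast between the methylation route and the CDP-choline route was read within each pool as the log2 ratio of Pemt to each enzyme, both in CPM per kilobase of counted exons. Relative to Chka, Pemt stood at 4.20, 5.28 and 4.98 in control pools and at 3.60, 4.80 and 2.07 in *Mttp-IKO* pools. The mean ratio was 1.33 lower on the log2 scale in *Mttp-IKO* pools (difference -1.33), but pool 2 lay within the control range, so the genotypes overlapped. Without *Mttp-IKO* pool 3 the difference was -0.62. Relative to Chpt1, Pemt stood at 3.51, 3.80 and 3.71 in control pools and at 5.16, 4.88 and 3.16 in *Mttp-IKO* pools. The difference there had the other sign, 0.73, with *Mttp-IKO* pools 1 and 2 above and pool 3 below every control pool, and was 1.35 without pool 3. Against Chkb, Pcyt1a and Cept1 the differences were -0.22, 0.27 and 0.23, each with the same placing of the 3 *Mttp-IKO* pools around the controls. Without *Mttp-IKO* pool 3 they were 0.35, 0.73 and 0.60, so that the sign against Chkb turned, and without *Mttp-IKO* pool 2 the difference against Cept1 turned to -0.030. In none of these 5 ratios did the genotypes separate, and the difference against Chka was the only one below 0 both with and without *Mttp-IKO* pool 3. In that pool the median of the transcript length class was -0.59 for that of Pemt. It was 0.075 for the class of Chka, Chpt1 and Cept1, 0.31 for that of Pcyt1a and -0.21 for that of Chkb. No ratio corrected for length was computed, and the part of this shift in the ratios was not tested.

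**Figure D4:**
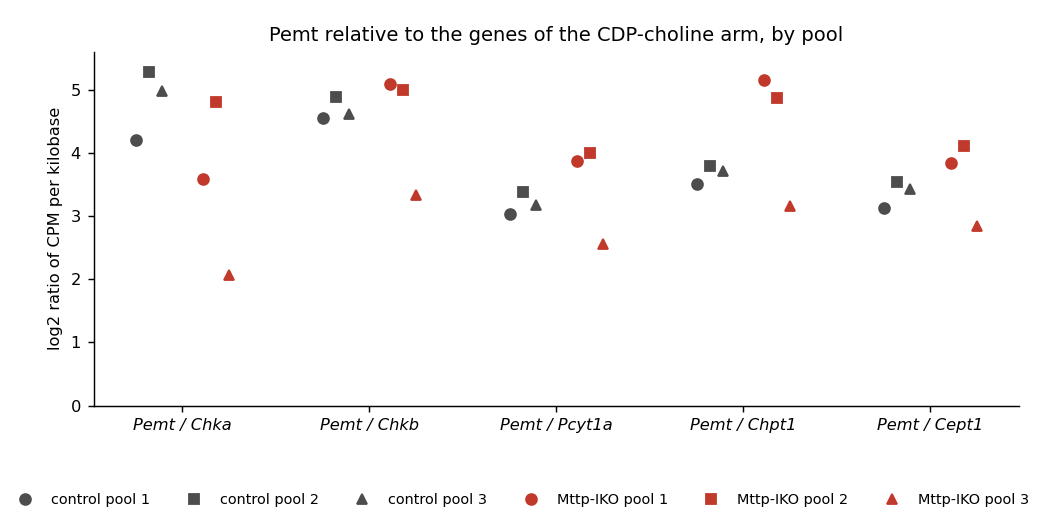
Log2 ratio of Pemt to each gene of the CDP-choline arm, from CPM per kilobase of counted exons (vertical axis), in control (grey) and Mttp-IKO (red) pools, 1 point for each pool. Against Chka the Mttp-IKO pools lie at 3.60, 4.80 and 2.07, and against the other 4 genes Mttp-IKO pools 1 and 2 lie above all controls and pool 3 below them.

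Within the CDP-choline route, 2 of the 4 ratios computed separated the genotypes, both with Chka in them, while Chka to Chkb and Chpt1 to Cept1 overlapped. The log2 ratio of Chka to Pcyt1a was -1.16, -1.89 and -1.79 in control pools and 0.27, -0.80 and 0.49 in *Mttp-IKO* pools, a difference of 1.60 with no overlap. The log2 ratio of Chka to Chpt1 was -0.69, -1.48 and -1.27 in control pools and 1.56, 0.071 and 1.09 in *Mttp-IKO* pools, a difference of 2.06 with no overlap. In every *Mttp-IKO* pool Chka mRNA was thus higher relative to Pcyt1a and to Chpt1 than in any control pool. The ratio of Chka to Cept1 and those of Chkb to the later enzymes were not computed. The ratios given were chosen with the levels known and are given without a test.

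Pemt is chiefly a hepatocyte gene in the liver, and the levels of several cell type marker lists differed with genotype. In bulk RNA, fewer cells of a type and less RNA per cell cannot be told apart. Of 10 hepatocyte markers, 8 had higher and 2 lower means in *Mttp-IKO* pools, with 0 called and a median log2 fold change of 0.71. Their summed level was 75488 to 111787 CPM in control and 137278 to 186970 CPM in *Mttp-IKO* pools. Alb alone made up the larger part of each sum, at 40131 to 69005 CPM in control and 84785 to 132236 CPM in *Mttp-IKO* pools. Markers of recruited macrophages had lower means in 8 of 8 cases, 5 of them called, and summed to 274 to 840.0 CPM in control and 114 to 184 CPM in *Mttp-IKO* pools. Of 8 stellate cell markers, 7 had lower means, 5 of them called, and their sum was 831 to 1438 CPM against 453 to 558 CPM. Kupffer cell markers had higher means in 4 of 6 cases, 1 of them, Timd4, called, and endothelial markers in 3 of 6, with a median log2 fold change of -0.027. Hnf4a, a hepatocyte marker, had a log2 fold change of 0.87 (edgeR, adjusted p = 0.0664). Per kilobase, the log2 ratio of Chka to Hnf4a overlapped between genotypes, with a difference of 0.67. The ratios of Pemt and Chpt1 to Hnf4a were lower in every *Mttp-IKO* pool than in any control pool, with differences of -0.65 and -1.38. For Pemt the margin was narrow. The 2 hepatocyte markers with lower means, Ttr and Ahsg, had log2 fold changes of -0.55 and -0.013. No ratio to a marker other than Hnf4a was computed, so these ratios hold for Hnf4a and not for hepatocyte markers in general. The part of these cell types in the levels of the 10 genes was not tested. The filter on low counts kept 3 of 9 striated muscle markers, 1 of 6 for pancreas (Cela1) and 2 of 6 for small intestine. The muscle markers kept summed to 1701 CPM in control pool 2, 214 CPM in control pool 1 and 6.28 to 17.7 CPM in the other pools. Myh1, left out by the filter, had 7663 reads in control pool 2, 1287 in control pool 1 and 0 to 6 in the others. Cela1 reached at most 6.21 CPM, and the small intestine markers kept summed to at most 41.5 CPM.

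Levels of different genes can be compared only per length. Per kilobase of counted exons, the mean order in control pools was Pemt at 135 ± 17.8, Etnk2 at 85.9 ± 8.21, Pcyt2 at 76.3 ± 10.5, Pcyt1a at 14.6 ± 0.180, Etnk1 at 13.6 ± 0.744, Cept1 at 13.1 ± 0.569, Chpt1 at 10.6 ± 0.423, Chkb at 5.22 ± 0.195, Chka at 4.89 ± 1.36 and Pisd at 3.41 ± 0.408 CPM per kilobase (SD, n = 3). Pemt, Etnk2 and Pcyt2 thus formed an upper group in every pool. The neighbours Etnk2 and Pcyt2, Etnk1 and Cept1, and Chkb and Chka overlapped between pools. In *Mttp-IKO* pools Chka had moved from rank 9 to rank 5, at 15.1 ± 7.41 CPM per kilobase. The order of the lower 7 depends on the length used, because the counted exons of Chka span 12024 nt and its principal GENCODE M21 transcript 2549 nt. Divided by the principal transcript, Chka stood at 23.0 ± 6.41 CPM per kilobase in control pools, rank 4, and at 71.2 ± 34.9 in *Mttp-IKO* pools, also rank 4, and the upper group remained Pemt, Pcyt2 and Etnk2.

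Around these 10 genes, 57 further genes of the pathway were listed, pseudogenes of Pisd among them, of which 53 could be tested. None passed the adjusted threshold in edgeR (0 of 53, against 4.01% of all genes). At an unadjusted p under 0.05 in edgeR there were 11, 5 with the higher and 6 with the lower mean in *Mttp-IKO* pools. Over all genes that share was 23%, 9.53% higher and 13.5% lower. DESeq2 called 6, against 11.5% of all genes, and limma-voom 0, against 2.48%. The pools did not overlap for 15, 8 higher and 7 lower, against 31% of all genes, 14.5% higher and 16.5% lower. The median log2 fold change was -0.016 and the lowest adjusted p 0.0538. The counts by unadjusted p, by DESeq2 and by overlap of pools are near these shares of all genes.

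Among choline carriers, 2 of 7 tested had higher and 5 lower means, with a median log2 fold change of -0.18. Slc44a2, a choline transporter-like protein, stood at 28.0, 21.5 and 26.7 CPM in control pools and at 14.9, 15.7 and 18.5 CPM in *Mttp-IKO* pools, with no overlap and a log2 fold change of -0.63 (edgeR, adjusted p = 0.0793). The paralogue Slc44a3 was higher in every *Mttp-IKO* pool, at 7.25, 8.09 and 6.84 CPM against 6.65, 4.35 and 4.69 CPM, with a log2 fold change of 0.50 (edgeR, adjusted p = 0.229). Slc44a1, the main choline transporter-like protein, had a log2 fold change of 0.0072 and overlapping pools. Slc5a7 and Slc44a5 were too low to test.

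Of 11 genes of choline oxidation and methyl donor supply, 5 had higher and 6 lower means, with a median log2 fold change of -0.016. Mat1a, which makes S-adenosylmethionine in hepatocytes, stood at 2509, 3265 and 3156 CPM in control pools and at 3409, 5341 and 5723 CPM in *Mttp-IKO* pools. Ahcy, which removes the S-adenosylhomocysteine that Pemt and other methyltransferases leave, stood at 653, 912 and 847 CPM in control pools and at 1110.3, 1912 and 1274 CPM in *Mttp-IKO* pools. In both cases every *Mttp-IKO* pool lay above every control pool, with log2 fold changes of 0.70 and 0.83 and adjusted p values of 0.171 and 0.113 in edgeR. Chdh, the mitochondrial enzyme that starts the oxidation of choline to betaine, stood at 233, 245 and 252 CPM in control pools and at 138, 147 and 232 CPM in *Mttp-IKO* pools, where pool 3 missed the control range by little. Its log2 fold change was -0.50 (edgeR, adjusted p = 0.232), and -0.77 without *Mttp-IKO* pool 3 (edgeR, adjusted p = 0.0238). Bhmt, which passes a methyl group from betaine to homocysteine, ranged from 726 to 1740.0 CPM in control and from 419 to 1167 CPM in *Mttp-IKO* pools.

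In the supply of diacylglycerol and CTP, 4 of 5 genes had higher means. Lpin1, a phosphatidate phosphatase, stood at 302, 677 and 550.3 CPM in control pools and at 514, 1107 and 1536 CPM in *Mttp-IKO* pools. The genotypes overlapped through *Mttp-IKO* pool 1, with a log2 fold change of 1.05 (edgeR, adjusted p = 0.198), and 0.67 without *Mttp-IKO* pool 3. Ctps and Lpin3 had log2 fold changes of 0.19 and -0.23. The list of further enzymes of PC, PE and phosphatidylserine synthesis had 6 entries tested. The 4 enzymes among them, Pcyt1b, Selenoi, Ptdss1 and Ptdss2, all had higher means. The base-exchange enzymes Ptdss1 and Ptdss2 had log2 fold changes of 0.22 and 0.17. The other entries, the Pisd pseudogenes Pisd-ps1 and Pisd-ps2, had lower means, with log2 fold changes of -0.20 and -0.19.

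PC remodelling had the lowest median of the pathway lists, -0.82, with 6 of 7 genes lower in mean. Of the 7, 4 were lower at an unadjusted p under 0.05 in edgeR, against 13.5% of all genes. Lpcat1, a lysophosphatidylcholine acyltransferase, stood at 12.3, 8.73 and 10.3 CPM in control pools and at 5.67, 6.34 and 5.24 CPM in *Mttp-IKO* pools. Every *Mttp-IKO* pool lay below every control pool, with a log2 fold change of -0.86 (edgeR, adjusted p = 0.0538; DESeq2, adjusted p = 0.00639). Pla2g4a, cytosolic phospholipase A2 alpha, stood at 5.93, 2.88 and 4.59 CPM in control pools and at 2.48, 2.33 and 0.965 CPM in *Mttp-IKO* pools, and Mboat1, another lysophospholipid acyltransferase, at 1.31, 0.693 and 1.56 CPM against 0.258, 0.686 and 0.461 CPM. The pools of both genes did not overlap, for Mboat1 by a narrow margin. Their log2 fold changes were -1.20 and -1.34 (edgeR, adjusted p = 0.139 and 0.157). Mboat1 was counted on few reads, 53, 25 and 50 in control pools and 8, 20 and 11 in *Mttp-IKO* pools. Lpcat3, the main hepatic acyltransferase of this kind, overlapped, at 149.7, 146 and 156 CPM in control pools and at 125, 162 and 188 CPM in *Mttp-IKO* pools. Of this list, Pla2g4a and Lpcat2 are well known from macrophages, whose markers were lower in *Mttp-IKO* pools by the values given above, and the part of those cells was not tested. Mboat2 was too low to test.

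Of 11 genes listed under PC breakdown and choline release, which include Sgpl1 and Etnppl of phosphoethanolamine metabolism, 6 had higher means. Gpcpd1, which frees choline from glycerophosphocholine, stood at 72.1, 123 and 178 CPM in control pools and at 54.4, 165 and 649 CPM in *Mttp-IKO* pools. *Mttp-IKO* pool 3 alone set its log2 fold change of 1.22 (edgeR, adjusted p = 0.382), which turned to -0.18 without that pool. Gdpd1 and Sgpl1 had log2 fold changes of -0.59 and -0.24, with overlapping pools. For PC transfer and export, 4 of 6 genes had higher means. Pitpnb, a phosphatidylinositol and PC transfer protein, stood at 48.4, 56.2 and 50.8 CPM in control pools and at 68.8, 79.6 and 66.6 CPM in *Mttp-IKO* pools, with no overlap and a log2 fold change of 0.47 (edgeR, adjusted p = 0.114). Pctp and Stard7, which carry PC between membranes, had log2 fold changes of 0.39 and 0.29 with overlapping pools, and Abcb4, which exports PC into bile, stood at 416, 412 and 443 CPM in control pools and at 365, 314 and 490.1 CPM in those of *Mttp-IKO* mice.

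**Figure D5:**
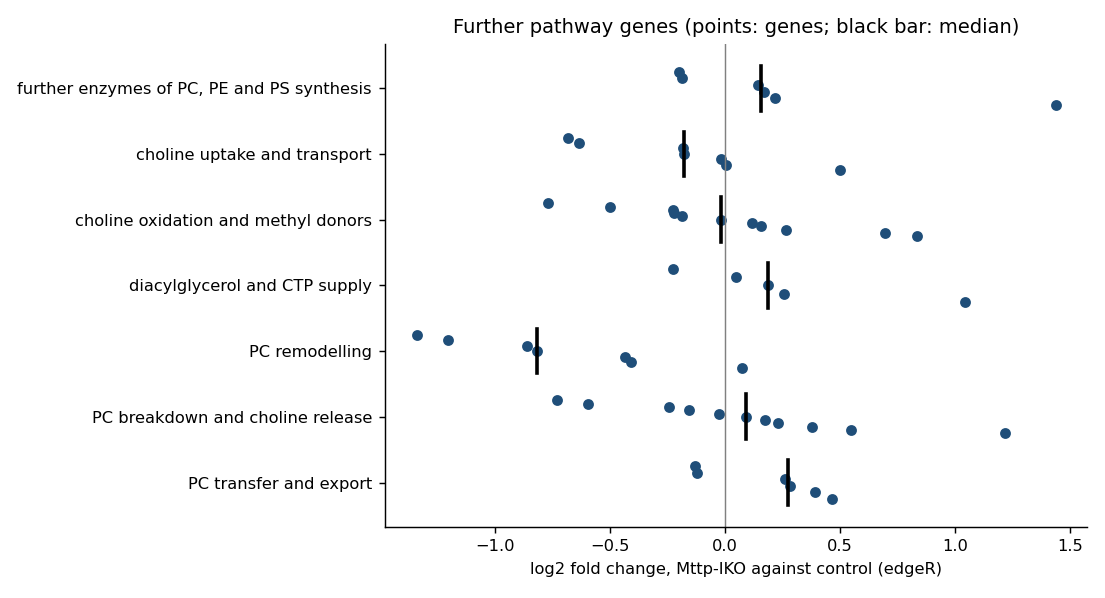
Log2 fold change, Mttp-IKO against control, of the 53 further pathway genes tested (points), by list, with the median of each list (black bar). The PC remodelling list has the lowest median, -0.82, the transfer and export list one of 0.27, and no point passed the adjusted threshold in edgeR.

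Over the 6 pools, the log2 CPM of Pemt was most like that of Dnajc7, a co-chaperone (Pearson r = 0.997), Safb, a nuclear matrix attachment factor (r = 0.992), and the uncharacterised gene 2310039H08Rik (r = 0.990), among 9035 protein-coding genes of sufficient level. Each of these genes also had its highest value in *Mttp-IKO* pool 2 and its lowest in *Mttp-IKO* pool 3. Pcyt1a was most like Asb6 (r = 0.993), Plk3 (r = 0.992) and Coq10b (r = 0.990), which had their highest values in *Mttp-IKO* pool 3. The 6 points are few for so many candidates and include the pool shifted with transcript length, so these values are a description only.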

How the data were processed

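RNA-Seq of liver was available for 3 control and 3 *Mttp-IKO* pools. Per the labels and the study's methods, ribosomal RNA was depleted before library preparation, reads were aligned with STAR 2.5.1a to GRCm38 (Ensembl release 76), and the authors deposited read counts per gene from featureCounts 1.4.6-p5, keeping uniquely aligned, unambiguous reads. The authors also deposited CPM (counts relative to the library total) and RPKM (CPM per kilobase of exons). Both follow from the counts, and only the counts were tested. Samples were grouped by the genotype in their titles. Whether strand was used is not given in the sources used here.

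Genes were filtered with filterByExpr (minimum count 10, minimum total 15), scaled by TMM and compared with edgeR 4.0.16 (glmQLFit, glmQLFTest, R 4.3.3), adjusted by Benjamini-Hochberg for 17287 genes, with a threshold of 0.05. Intervals are t intervals from that fit. The test was checked on simulated counts. DESeq2 1.42.0 and limma-voom (limma 3.58.1), other scalings and filters, removal of length trends (loess, span 0.3), a replicate block and the omission of each pool were alternatives. The 10 genes, the gene lists and the rule for named genes (per list, those passing the threshold or else the 3 with the smallest p; the 3 most like Pemt and Pcyt1a) were chosen with earlier results of these data known. Slc44a1, Bhmt, Lpcat3 and Abcb4 were added for their roles after their values were seen. A gene that this rule names is not reported here. Pools differed from each other by more than sampling noise.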

Additional observations from a re-analysis of the deposited data

How the results depend on the processing

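Over all genes, edgeR called 694, DESeq2 1995, limma-voom 428, edgeR at an adjusted p of 0.1 1658, and edgeR 0 to 892 when a pool was left out. Without *Mttp-IKO* pool 2 it called 0, with 3221 genes at an unadjusted p under 0.05, without control pools 1 and 3 it called 24 and 21, and without *Mttp-IKO* pool 1 it called 55. Of the 10 genes, 1, always Chka, was called by DESeq2, without the filter on low counts, with a replicate block, with the trend on gene length or (added after the data were seen) on GENCODE transcript length removed, and at an adjusted p of 0.1, and 0 to 0 when a pool was left out. Of the further pathway genes, the number called was 1 with upper quartile scaling, with 1 CPM required in 3 pools and with protein-coding genes only (each time Lpcat1), 1 with the gene length trend removed (Pitpnb), 3 with total counts, 6 by DESeq2 and 0 to 2 when a pool was left out (Lpcat1 without control pool 2, Chdh and Slc44a2 without *Mttp-IKO* pool 3). Scaling by total counts moved the median log2 fold change of all genes to -0.17, and the length corrections moved it to 0.12.

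Some small fold changes turned sign. With the gene length trend removed, Pcyt1a stood at 0.0042, Cept1 at 0.088 and Etnk2 at 0.027, and with the transcript length trend removed Cept1 at 0.067 and Etnk2 at 0.072. With total counts, Pisd stood at -0.031 and Ptdss2 at -0.014. Over the omissions of single pools, Pcyt1a ranged from -0.17 to 0.011, Etnk2 from -0.31 to 0.20 and Ctps from -0.016 to 0.32, turning without *Mttp-IKO* pool 1, and Pisd ranged from -0.051 to 0.26 and Gpcpd1 from -0.18 to 1.71, turning without *Mttp-IKO* pool 3. The log2 ratio of Pemt to Chkb turned without *Mttp-IKO* pool 3 and that to Cept1 without *Mttp-IKO* pool 2. The cause was not tested. Whether the replicate numbers pair the pools cannot be told from these values. In their deviations, same-numbered pools correlated at 0.193, 0.162 and 0.0053, and the other pairs at -0.202 to 0.0209. Control pools 1 and 2 correlated best with the pool of the same number, and control pool 3 with *Mttp-IKO* pool 2. With the replicate block 592 genes were called, and for Chka the log2 fold change was 1.52 and the adjusted p 0.0491. Each genotype has 3 pools, and variation between single mice was not measured.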
